A study of Mus musculus with 12 samples.

Results

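Of the 37310 gene rows counted in sorted mouse bone marrow neutrophils, of which 32620 carried a gene symbol, 7 belong to genes known from basophils and mast cells: Prss34, Mcpt8, Fcer1a, Ms4a2, Cpa3, Cd200r3 and Hdc. They were found by matching the Ensembl identifier of each row to these symbols, and all 7 were in the table. The set was chosen by cell type knowledge and by the counts themselves, since Prss34 and Mcpt8 had been seen to have no counts in Runx1 knockout cells with vehicle. Levels of the vehicle libraries are therefore given as a description with no test. The comparison of Runx1KO with Control in the LPS libraries, which the rule of the choice did not use, is the one tested. The genes were still chosen with earlier results of these data known, so the test is not fully independent of the choice. An LPS library and the vehicle library of the same genotype and number may share a source, so the LPS libraries may not be fully separate material. The filter and the estimate of the spread in that test also drew on the vehicle libraries.

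The 12 libraries formed 4 groups of 3: Runx1KO cells with LPS, Control cells with LPS, Runx1KO cells with vehicle and Control cells with vehicle. All came from C57BL/6 mice, whose hind limb marrow was sorted for CD11b+, Siglec F-, F4/80-, Ly6G+ cells. The cells were then kept for 2 h in buffered medium with serum and either vehicle or LPS, lipopolysaccharide of bacterial cell walls, at 100 ng/mL. Runx1 encodes a RUNX family transcription factor needed for blood formation, and the study asked how it bears on the neutrophil response to Toll-like receptor signals. The design text of the series describes Control material as LKS- marrow cells pooled over a Runx1f/f mouse and a Runx1f/- mouse, the second carrying 1 germline mutant Runx1 allele, whereas the label of every Control library gives sorted neutrophils. The labels do not settle which holds, and this bears on every value of the Control groups below. The sources used here do not give the Cre line, the deleted part of Runx1 or the age of the mice. The labels do not tie replicate libraries to separate animals, so the p-values cover only the spread seen between them. By the sex-linked transcripts given below, library 2 of each group held cells of other animals than libraries 1 and 3, and between libraries 1 and 3 the spread may be technical.

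Basophils are rare granulocytes that mature in the marrow and circulate in blood, whereas mast cells mature in tissues from marrow progenitors. Both carry the high-affinity receptor for immunoglobulin E, FceRI, and release histamine, lipid mediators and proteases when antigen crosslinks it. Basophils of the mouse make the serine proteases Prss34 and Mcpt8, and mouse connective tissue mast cells make the chymase Mcpt4, the tryptases and, as some basophils and progenitors also do, the carboxypeptidase Cpa3. GATA factors, above all Gata2, drive genes of both cell types, and loss of the Runx1 form made from the distal promoter is known to lower basophil numbers in the mouse.

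The promoters of all 7 genes were found in RefSeq on GRCm38.p6. This is not the build of the alignment, mm9, and it was used only for sequence. The 250 bases before the start of 4 genes are printed, Prss34 and Mcpt8 because they had no count in any Runx1KO library, Fcer1a because it encodes the chain that binds IgE and was also at 0 there, and Cpa3 because it did not follow them with LPS. Capitals mark the letters GATAA, bound by GATA factors, and TGNGGT, a loose form of the site of RUNX factors. Their reverse complements TTATC and ACCNCA are marked as well. The N stands for any base, whereas the RUNX consensus has T or C there, so some marked RUNX letters may not be RUNX sites. Prss34 lies on the plus strand of chromosome 17 (chr17:25298144-25298393), Mcpt8 on the minus strand of chromosome 14 (chr14:56085198-56085447), Fcer1a on the minus strand of chromosome 1 (chr1:173227230-173227479) and Cpa3 on the minus strand of chromosome 3 (chr3:20242182-20242431). Each is written 5′ to 3′ on the strand of its gene.
Prss34: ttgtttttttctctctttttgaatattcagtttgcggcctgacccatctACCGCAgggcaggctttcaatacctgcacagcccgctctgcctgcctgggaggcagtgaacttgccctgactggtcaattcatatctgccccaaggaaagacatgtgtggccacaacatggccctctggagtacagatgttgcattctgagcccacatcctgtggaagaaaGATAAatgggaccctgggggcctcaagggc
Mcpt8: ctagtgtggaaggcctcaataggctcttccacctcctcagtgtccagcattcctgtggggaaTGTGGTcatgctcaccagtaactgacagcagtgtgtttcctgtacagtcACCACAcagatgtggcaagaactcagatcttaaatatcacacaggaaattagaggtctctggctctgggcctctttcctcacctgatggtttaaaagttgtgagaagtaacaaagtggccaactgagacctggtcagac
Fcer1a: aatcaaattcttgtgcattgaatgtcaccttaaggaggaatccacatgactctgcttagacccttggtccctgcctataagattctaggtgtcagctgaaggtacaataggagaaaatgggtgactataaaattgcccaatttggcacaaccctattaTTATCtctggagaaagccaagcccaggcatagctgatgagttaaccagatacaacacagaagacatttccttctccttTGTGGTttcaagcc
Cpa3: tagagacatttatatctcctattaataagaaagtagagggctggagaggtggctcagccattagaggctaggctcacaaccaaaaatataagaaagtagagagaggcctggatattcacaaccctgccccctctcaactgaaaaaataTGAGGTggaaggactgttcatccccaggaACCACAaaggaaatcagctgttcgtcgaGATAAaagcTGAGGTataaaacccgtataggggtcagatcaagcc

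Searched on both strands of these 250 bases, the GATA letters were found in 5 of the 7 promoters and in 22.6% of 32851 mouse promoters of the same length. The RUNX letters were found in 4 of the 7 and in 40.1% of all promoters, a share that includes matches with A or G as the third base. The RUNX letters stood before Prss34, Mcpt8, Fcer1a and Cpa3, and the GATA letters before Prss34, Fcer1a, Ms4a2, Cpa3 and Cd200r3. Prss34 held its GATA match 30 bases before the start and its RUNX match 201 bases before. Mcpt8 held RUNX matches at 188 and 139 bases and no GATA match, and Fcer1a a GATA match at 92 and a RUNX match at 14 bases. Cpa3 had the most matches, with GATA letters at 45 bases and RUNX letters at 102, 73 and 36 bases. Those at 102 and 36 bases read TGAGGT, which departs from the RUNX consensus at the third base. Ms4a2 and Cd200r3 held GATA letters alone, at 224, 37 and 10 bases and at 115 and 38 bases. The promoter of Hdc, whose levels are the highest of the 7 genes, held neither motif in this window. These are matches of letters, and nothing in the data measured binding there.

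**Figure D1:**
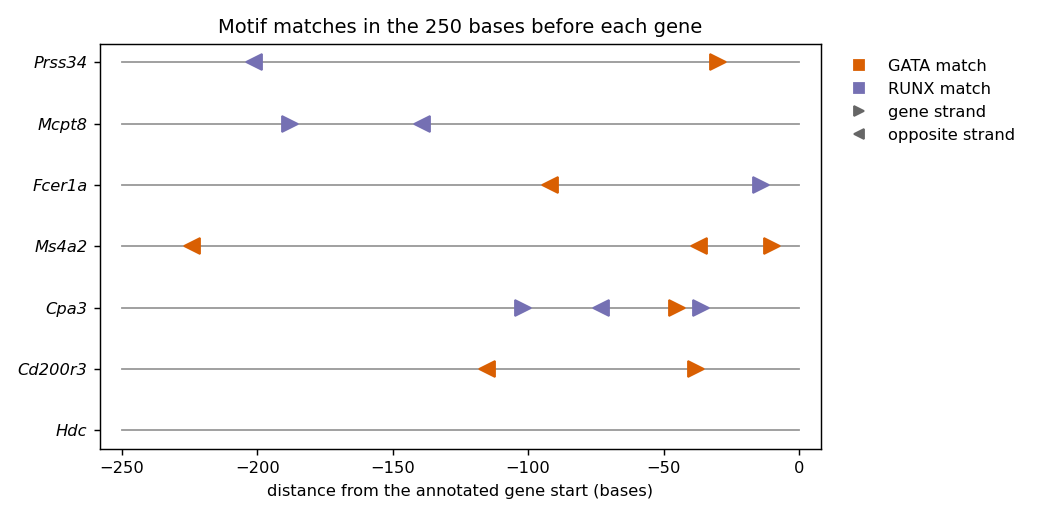
Position of GATA letters (orange) and RUNX letters (purple) in the 250 bases before the annotated start of the 7 genes, in bases from the start; arrowheads give the strand relative to the gene. Prss34, Fcer1a and Cpa3 carry both, Mcpt8 RUNX letters alone, Ms4a2 and Cd200r3 GATA letters alone and Hdc neither.

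The libraries held between 19023610 and 26225169 gene counts in total. Levels are in CPM, counts divided by a library size that was scaled by the TMM method, whose factors lay between 0.699 and 1.20. The 4 libraries numbered 2, 1 in each group, differed from the other 8 in sex-linked transcripts. Xist, the RNA of the inactive X chromosome, was at 0 in them and at 42.4 to 65.7 CPM in the others, and the summed level of 4 Y-linked genes was 262 to 379 CPM in them and at most 0.251 CPM in the others.

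Transcripts of both basophil proteases were absent from the counts of all 6 Runx1KO libraries and present in all 6 Control libraries. Prss34 (ENSMUSG00000056399.1), a serine protease known from mouse basophils, had 0, 0 and 0 counts in the Runx1KO LPS libraries numbered 1, 2 and 3, against 215, 46 and 394 counts in the Control LPS libraries. In CPM the Control LPS libraries stood at 10.8, 2.33 and 18.5, with a mean of 10.5 ± 8.11 (SD, n = 3). Library 2 was the lowest of the Control group, and it too lay above every Runx1KO library. Against a floor of 3 counts over the Runx1KO group, which is 0.0473 CPM, Prss34 was at least 227-fold lower in Runx1KO cells with LPS. By edgeR's quasi-likelihood test it passed, with a Benjamini-Hochberg adjusted p = 0.0191 over all 12917 genes tested. In bulk samples, fewer cells of a type and less RNA per cell cannot be told apart. The call was lost without Runx1KO LPS library 2 (edgeR adjusted p = 0.0685), Runx1KO LPS library 3 (0.0613) or Control LPS library 1 (0.0505), and with the 4 libraries numbered 1, 2 or 3 left out (0.204, 0.0886 and 0.165). It was also lost by limma-voom (adjusted p = 0.0733) and in a fit of the 6 LPS libraries alone (edgeR adjusted p = 0.0668), and DESeq2 gave 3.61e-10.

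Mcpt8 (ENSMUSG00000022157.7), a granzyme-like protease by which mouse basophils are recognised, had 0, 0 and 0 counts in Runx1KO LPS libraries, against 71, 9 and 72 counts in Control LPS libraries. The Control levels were 3.56, 0.455 and 3.39 CPM (mean 2.47 ± 1.74, SD, n = 3). Library 2 was again the lowest, and the groups did not overlap. Mcpt8 was at least 52.7-fold lower in Runx1KO cells with LPS, but it missed the threshold of edgeR's quasi-likelihood test (adjusted p = 0.0530). With the library number as a block the edgeR adjusted p was 0.0134, and without Control LPS library 2 it was 0.0400. With the libraries numbered 1, 2 or 3 left out it was 0.289, 0.118 and 0.352. By limma-voom the adjusted p was 0.121 and by DESeq2 8.26e-06, and 4 of 15 alternatives called Mcpt8. A microRNA gene on the same strand, Mir6949, overlaps Mcpt8 in the annotation, and the sources used here do not give the strand setting of the counting.

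**Figure D2:**
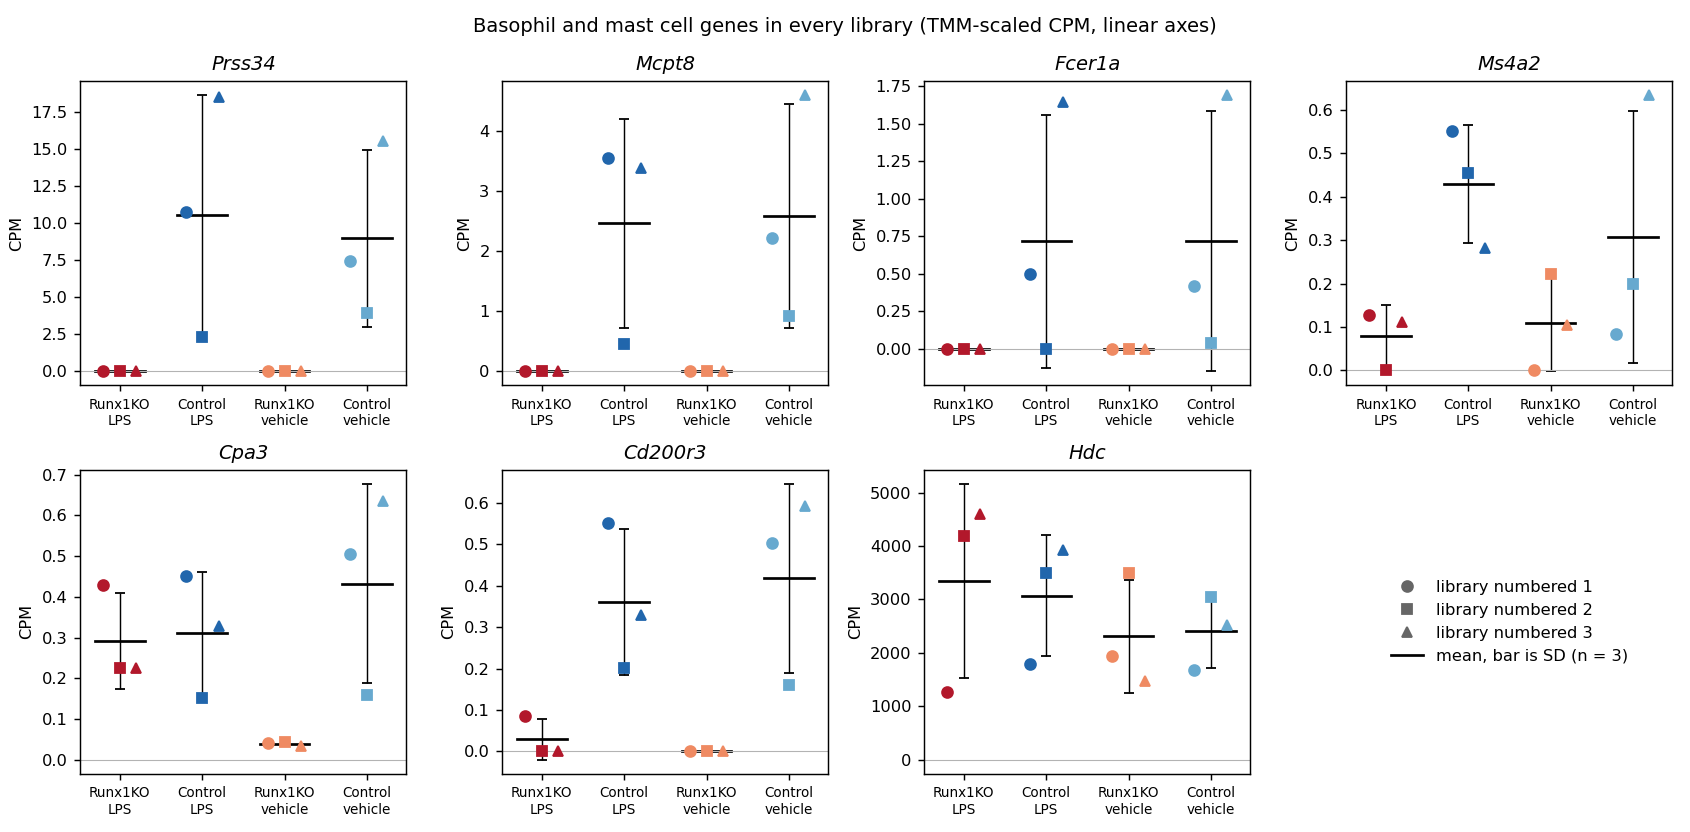
TMM-scaled CPM of the 7 genes in each of the 12 libraries on linear axes that differ between panels; symbols give the library number, horizontal lines the group mean and bars the SD (n = 3). Prss34, Mcpt8 and Fcer1a are at 0 in all 6 Runx1KO libraries, Cpa3 overlaps between the genotypes with LPS, and Hdc has a mean of at least 2309 CPM in every group.

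The chains of the IgE receptor were near the limit of counting. Fcer1a (ENSMUSG00000005339.5), the alpha chain that binds IgE, had 0, 0 and 0 counts in Runx1KO LPS libraries, against 10, 0 and 35 counts in Control LPS libraries. The Control LPS levels were 0.501, 0 and 1.65 CPM (mean 0.716 ± 0.844, SD, n = 3). With Control library 2 at 0 the groups were not apart. Fcer1a was at least 15.6-fold lower over the group and did not pass (edgeR adjusted p = 0.381). Ms4a2 (ENSMUSG00000024680.5), the beta chain that amplifies the receptor's signal, had 3, 0 and 2 counts in Runx1KO LPS libraries, against 11, 9 and 6 counts in Control LPS libraries. This is 0.128, 0 and 0.112 CPM in Runx1KO cells (mean 0.0803 ± 0.0700), against 0.551, 0.455 and 0.282 CPM in Control cells (mean 0.430 ± 0.136; SD, n = 3 each). Every Runx1KO library lay below every Control library, and the summed counts had a ratio of 0.185 (95% counting interval 0.0555 to 0.489). Ms4a2 was the 1 gene of the 7 that did not pass edgeR's filter on low counts. An exact two-sided permutation test gave p = 0.1, the smallest that 3 libraries against 3 allow, and without the filter the edgeR adjusted p was 0.699. The receptor's signalling gamma chain, Fcer1g, which neutrophils and other myeloid cells also use with Fc receptors for IgG, averaged 2614 ± 1739 CPM in Runx1KO LPS libraries and 1771 ± 423 CPM in Control LPS libraries and did not pass (edgeR adjusted p = 0.780).

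Cd200r3 (ENSMUSG00000036172.10), a receptor of the CD200 receptor family carried by mouse basophils and mast cells, had 2, 0 and 0 counts in Runx1KO LPS libraries, against 11, 4 and 7 counts in Control LPS libraries. The levels were 0.0856, 0 and 0 CPM in Runx1KO cells (mean 0.0285 ± 0.0494), against 0.551, 0.202 and 0.329 CPM in Control cells (mean 0.361 ± 0.177; SD, n = 3 each). The groups did not overlap. The summed counts were 11.4-fold lower in Runx1KO cells (95% counting interval 2.81 to 100.4), and the difference did not pass (log2 fold change −3.33, SE 1.11, edgeR adjusted p = 0.302).

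Cpa3 (ENSMUSG00000001865.1), the carboxypeptidase of mast cell granules, did not follow the proteases in the LPS libraries. It had 10, 5 and 4 counts in Runx1KO LPS libraries, against 9, 3 and 7 counts in Control LPS libraries. The levels were 0.428, 0.225 and 0.225 CPM in Runx1KO cells (mean 0.293 ± 0.117), against 0.451, 0.152 and 0.329 CPM in Control cells (mean 0.311 ± 0.151; SD, n = 3 each). The groups overlapped, and the ratio of summed counts was 0.962 (95% counting interval 0.482 to 1.92). The interval covers counting error alone. A difference of about 2-fold, or a larger one given the spread between libraries, could have gone undetected at this depth. The log2 fold change was −0.08 (SE 0.67, edgeR adjusted p = 0.991). Mir7007 overlaps Cpa3 on the same strand.

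Hdc (ENSMUSG00000027360.5), histidine decarboxylase, makes histamine in basophils and mast cells and is also expressed by CD11b+ myeloid cells of mouse marrow. It had 1262.5, 4187 and 4599 CPM in Runx1KO LPS libraries (mean 3349 ± 1819), against 1785.5, 3504 and 3919 CPM in Control LPS libraries (mean 3069 ± 1131; SD, n = 3 each). Library 1 was the lowest of each LPS group, and the groups overlapped. The log2 fold change was 0.13 (SE 0.50, edgeR adjusted p = 0.975), and its sign turned with library size alone as scaling (−0.07) and by limma-voom (−0.0027). Hdc was counted 29489 to 93205 times in each of the 12 libraries, and its level did not follow that of the basophil proteases.

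Of the 6 genes tested with LPS, edgeR called 1 lower, Prss34, and 0 higher, with 4 lower and 0 higher at an unadjusted p under 0.05. Over all 12917 genes edgeR called 0.573% lower and 0.348% higher, and 4.79% were lower and 5.36% higher at an unadjusted p under 0.05. DESeq2 and the fit with the library number as a block called Prss34 and Mcpt8, and limma-voom called 0. Over all genes DESeq2 called 1.75% lower and 1.35% higher, the fit with the block 1.43% lower and 0.906% higher, and limma-voom 0.488% lower and 0.325% higher. These shares are also the background of the counts over other lists given below. All Runx1KO libraries lay below all Control libraries for 3 of the 6, Prss34, Mcpt8 and Cd200r3, and the same held for 6.76% of all genes tested. A gene with no count in Runx1KO cells passed the filter through its Control libraries, so the counts over the genes that passed describe them and are no support for a shared direction. The fitted log2 fold changes had a median of −5.19 over the 6 genes, or −3.65 with the 3 genes at 0 set at their bound, beside a median of 0.03 over all genes.

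**Figure D3:**
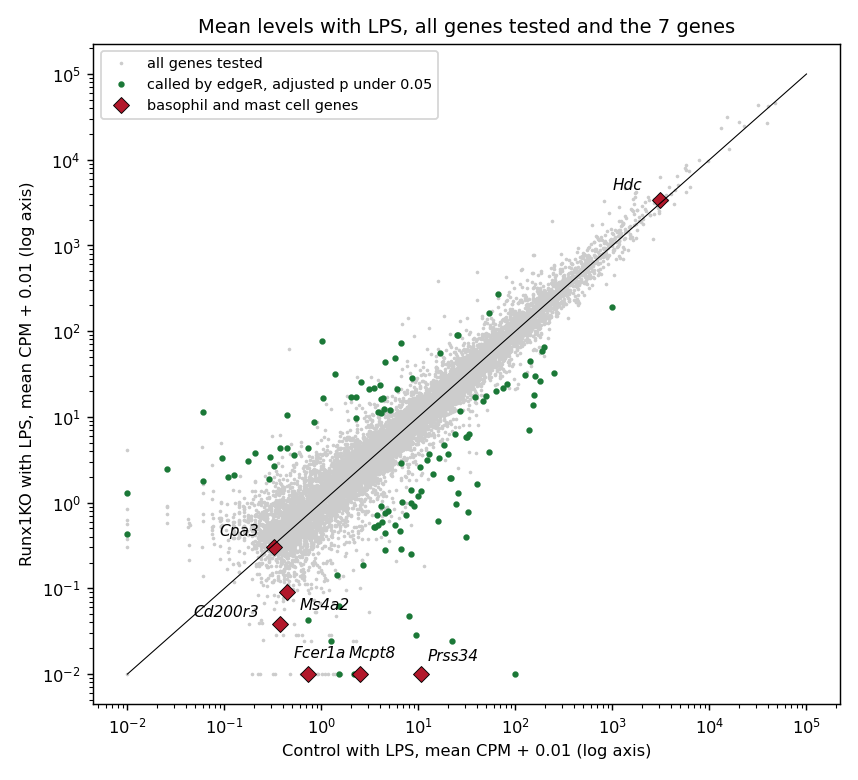
Mean CPM plus 0.01 of 3 Runx1KO libraries (vertical) against 3 Control libraries (horizontal) with LPS, both on log axes; grey points are all genes tested, green points those called by edgeR and red diamonds the 7 genes, Ms4a2 untested. Prss34, Mcpt8 and Fcer1a lie on the lower edge at 0 counts in Runx1KO cells, and Cpa3 and Hdc lie close to the line of equal levels.

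With vehicle, the libraries on which the choice rested, Prss34 had 0, 0 and 0 counts in Runx1KO libraries, against 177, 98 and 368 counts in Control libraries (mean 8.97 ± 5.98 CPM, SD, n = 3). Mcpt8 had 0, 0 and 0 counts in Runx1KO libraries, against 53, 23 and 109 counts in Control libraries (mean 2.59 ± 1.87 CPM). Library 2 was again the lowest Control library for both. A further pair of genes also had no count in Runx1KO vehicle libraries: Fcer1a, with 10, 1 and 40 counts in the Control libraries, and Cd200r3, with 12, 4 and 14 counts there. Cpa3 stood just outside, with 1, 1 and 1 counts in Runx1KO libraries, against 12, 4 and 15 counts in Control libraries, a ratio of 0.0925 (95% counting interval 0.0181 to 0.297). Ms4a2 had 0, 5 and 3 counts in Runx1KO libraries, against 2, 5 and 15 counts in Control libraries, and the groups overlapped. Hdc averaged 2309 ± 1059 CPM in Runx1KO libraries and 2412 ± 689 CPM in Control libraries (SD, n = 3 each), with overlap. The folds were at least 224 for Prss34, 64.5 for Mcpt8, 17.8 for Fcer1a and 10.5 for Cd200r3. Groups without overlap, Runx1KO below Control, were found for 5 of the 6 beside 7.82% of all genes. Since the choice used these libraries, nothing is read from this count.

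LPS and vehicle libraries of a genotype are set side by side without a test, because the vehicle libraries entered the choice. In Control cells the summed counts with LPS over those with vehicle, scaled by library size, gave a ratio of 1.21 for Prss34 (95% counting interval 1.08 to 1.35) and 0.977 for Mcpt8 (0.783 to 1.22). The ratio was 1.05 for Fcer1a (0.687 to 1.60), 0.872 for Cd200r3 (0.479 to 1.56), 0.729 for Cpa3 (0.389 to 1.33) and 1.40 for Ms4a2, whose interval also included 1. These intervals cover counting error alone. By library number, the level of Prss34 differed between LPS and vehicle by 3.34, −1.59 and 2.98 CPM in Control cells, so the pairs went both ways. The level of Mcpt8 differed by 1.33, −0.46 and −1.22 CPM, also both ways. In Runx1KO cells Prss34, Mcpt8 and Fcer1a had no count with either treatment, and Cd200r3 had 2 counts with LPS and 0 with vehicle. Cpa3 differed from the others, since its level was higher with LPS in each Runx1KO pair, by 0.388, 0.180 and 0.190 CPM, and lower in each Control pair, which differed by −0.053, −0.0081 and −0.31 CPM. Hdc was higher with LPS in every Control pair, by 109, 462 and 1401 CPM, and in 2 of the 3 Runx1KO pairs, which differed by −684, 685 and 3119 CPM.

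Levels of different genes are compared as RPKM, here the mean CPM per kilobase of exon. In Control cells with LPS the mean level was 480 RPKM for Hdc, 8.65 for Prss34, 2.47 for Mcpt8, 0.718 for Fcer1a, 0.205 for Cpa3, 0.153 for Ms4a2 and 0.0603 for Cd200r3. The order of the genes was the same in Control cells with vehicle, at 378, 7.35, 2.59, 0.719, 0.285, 0.109 and 0.0700 RPKM. Prss34 lay above Mcpt8 in each of the 6 Control libraries in raw counts as well. Cpa3 and Ms4a2 rested on 19 to 31 counts over a Control group, and their order was not resolved beyond the spread of the libraries.

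The 6 genes other than Hdc differed several-fold in their sum across Control libraries, and Prss34 took the largest share in each of the 6. Their summed counts were 327, 71 and 521 in Control LPS libraries and 266, 135 and 561 in Control vehicle libraries, with the library numbered 2 lowest under both treatments. Prss34 took 65.7% of these counts in Control LPS library 1 (95% exact interval 60.3 to 70.9), 64.8% in library 2 (52.5 to 75.8) and 75.6% in library 3 (71.7 to 79.3). With vehicle it took 66.5% (60.5 to 72.2), 72.6% (64.3 to 79.9) and 65.6% (61.5 to 69.5). The interval of Control LPS library 3 lay above those of Control LPS library 1 and Control vehicle library 3, so the share was not the same in all. Mcpt8 took 12.7 to 21.7% of the counts in the 6 Control libraries, Cpa3 1.34 to 4.51% and Cd200r3 1.34 to 5.63%. Ms4a2 took 12.7% in Control LPS library 2 (5.96 to 22.7), against 1.15% in Control LPS library 3 (0.424 to 2.49) and 0.752% in Control vehicle library 1 (0.0912 to 2.69), and the first of these intervals lay above the other two. Fcer1a was at 0 of 71 counts in Control LPS library 2 (exact upper limit 5.06%) and 0.741% in Control vehicle library 2, against 3.06 to 7.13% in the other 4. The libraries numbered 2 were also those with Y-linked reads and without Xist; the part of sex in their lower sums was not tested. In Runx1KO cells the sums were 15, 5 and 6 counts with LPS and 1, 6 and 4 counts with vehicle, all from Cpa3, Ms4a2 and Cd200r3.

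**Figure D4:**
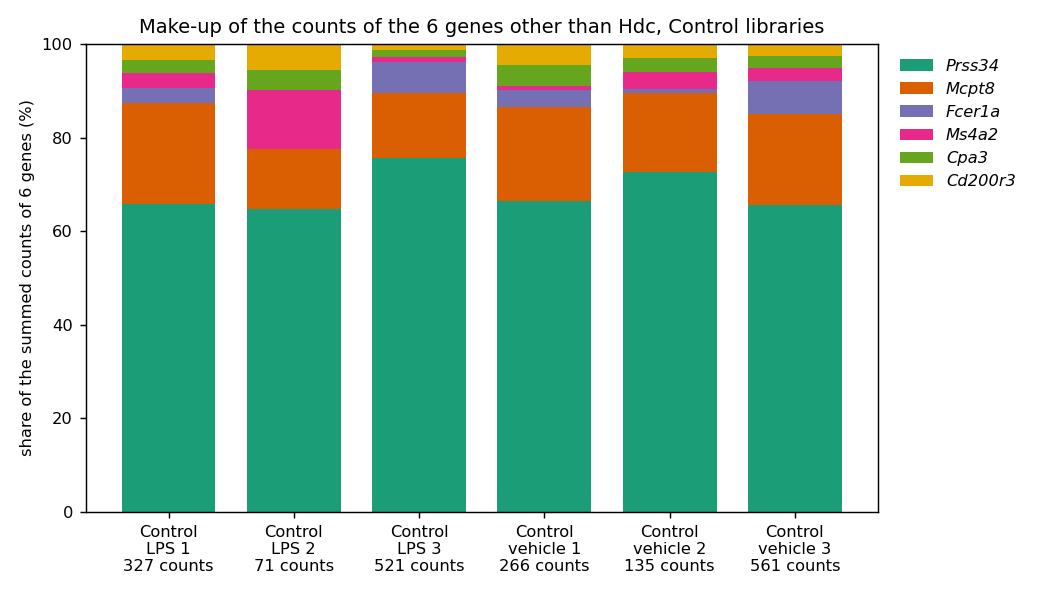
Share of each gene, in percent, in the summed counts of the 6 genes other than Hdc, for each Control library with its sum beneath. Prss34 takes between 64.8 and 75.6% in every bar, although the sums run between 71 and 561 counts.

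Other genes of the same cells and pathways were read from lists chosen with earlier results of these data known. Of 9 mast cell proteases and receptors, Mcpt4, Tpsb2, Tpsg1 and Mrgprb2 were at 0 in all 12 libraries, and the chymase gene Cma1, Mcpt1 and Mcpt2 had at most 2 counts in any library. The tryptase gene Tpsab1 had counts in library 1 of 3 groups alone, 7 with LPS in Control cells, 14 with vehicle in Runx1KO cells and 2 with vehicle in Control cells. The data thus do not bear out the mast cell part of the set by its defining proteases, whereas both basophil proteases were counted in every Control library. Kit, the stem cell factor receptor of mast cells and progenitors, averaged 26.8 ± 21.7 CPM in Runx1KO LPS libraries and 9.35 ± 2.00 CPM in Control LPS libraries and did not pass (edgeR adjusted p = 0.544).

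Among 12 partners of FceRI and kinases and adaptors downstream of it, edgeR, DESeq2 and limma-voom each called 0 of 12 with LPS, and 1 was higher at an unadjusted p under 0.05. The median log2 fold change was −0.09, beside 0.03 over all genes. With LPS, the kinase gene Lyn averaged 433 ± 95.1 CPM in Runx1KO and 373 ± 80.7 CPM in Control libraries, and Syk 374 ± 176 CPM in Runx1KO and 459 ± 222 CPM in Control libraries. The adaptor gene Lcp2 averaged 689 ± 528 CPM in Runx1KO and 330 ± 130 CPM in Control libraries. These genes serve many receptors of neutrophils too. A further list held 12 genes of basophils or shared by basophils and mast cells, not all of them particular to basophils. Of these, 6 passed the filter and edgeR called 0 (median −0.42), with 1 lower at an unadjusted p under 0.05. The cytokine gene Il13 and the protease gene Mcpt9 were at 0 in all libraries. Slc18a2, the vesicular transporter that loads histamine, averaged 8.92 ± 4.93 CPM in Runx1KO LPS libraries and 13.3 ± 6.83 CPM in Control LPS libraries. The protease gene Ctsg averaged 6.92 ± 1.45 CPM in Runx1KO and 3.83 ± 3.08 CPM in Control LPS libraries, and Il3ra, the alpha chain of the interleukin-3 receptor, 4.75 ± 1.45 CPM in Runx1KO and 3.43 ± 0.493 CPM in Control LPS libraries. Cyp11a1, a steroid-making enzyme reported in mouse basophils and mast cells and named here after its values were seen, had no count in any Runx1KO library, against 23, 6 and 38 counts in Control LPS libraries. It was at least 23.2-fold lower with LPS and did not pass (edgeR adjusted p = 0.0726). DESeq2 and the fit with the block called it, and limma-voom called 0 of the 6.

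Of 8 transcription factors of the lineage, edgeR and limma-voom called 0 with LPS (median 0.40), 1 was higher at an unadjusted p under 0.05, and DESeq2 called Gata1 higher. Spi1, a myeloid factor that neutrophils use too, averaged 763 ± 425 CPM in Runx1KO and 658 ± 235 CPM in Control LPS libraries. Gata2, named for its role in basophils after its values were seen, had 51, 23 and 46 counts in Runx1KO LPS libraries, against 22, 3 and 32 counts in Control LPS libraries (log2 fold change 1.06, SE 0.71, edgeR adjusted p = 0.708). Gata2 was counted in the Runx1KO libraries in which the proteases were not. The bulk counts do not give the cells that Gata2 came from, and its part in the protease levels was not tested. Of 8 cytokine receptors and enzymes of arachidonate metabolism, edgeR, DESeq2 and limma-voom called 1, and it was lower. Il18r1, a chain of the interleukin-18 receptor, which basophils carry, had 1.67, 1.03 and 1.52 CPM in Runx1KO LPS libraries, against 12.1, 8.14 and 5.13 CPM in Control LPS libraries. The groups did not overlap (log2 fold change −2.59, SE 0.42, edgeR adjusted p = 0.0129). Without Runx1KO LPS library 2 the adjusted p was 0.0758, without Runx1KO LPS library 3 it was 0.0587 and without Control LPS library 1 it was 0.05002. Library 2 was not the lowest of the Control LPS libraries for this gene, but it was the lowest of the Control vehicle libraries.

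Some markers of other cells differed between the genotypes as well. Sums are over all genes of a list, tested or not, in the LPS libraries unless vehicle is named. Of 9 B lineage genes tested with LPS, edgeR called 1 lower and 0 higher (median −1.88), with 6 lower and 0 higher at an unadjusted p under 0.05. DESeq2 called 4 lower, the fit with the block 3 and limma-voom 1. The summed level of the 10 genes listed was 13.7 to 22.3 CPM in Runx1KO and 25.0 to 63.8 CPM in Control libraries. The gene called was Ms4a1, which encodes CD20, with 1, 0 and 0 counts in Runx1KO LPS libraries, against 23, 22 and 31 counts in Control LPS libraries (edgeR adjusted p = 0.0191). Its call was lost with any LPS library but Runx1KO library 1 left out, with an adjusted p of up to 0.0999 (without Runx1KO library 2). Of 7 eosinophil genes tested edgeR called 0 (median −0.28), with 2 lower at an unadjusted p under 0.05. Ear2 was called lower by DESeq2 and the fit with the block. Their summed level was 10.4 to 14.5 CPM in Runx1KO and 11.1 to 32.3 CPM in Control libraries. Ear2, an eosinophil ribonuclease whose near-identical paralogs make its count uncertain, had 11, 1 and 0 counts in Runx1KO LPS libraries, against 362, 67 and 263 counts in Control LPS libraries (edgeR adjusted p = 0.0530). Control library 2 was the lowest for Ear2, as for Prss34. Siglecf, an eosinophil surface receptor, averaged 6.35 ± 2.29 CPM in Runx1KO and 6.49 ± 3.18 CPM in Control LPS libraries, and Ccr3 1.56 ± 0.990 CPM in Runx1KO and 0.591 ± 0.430 CPM in Control LPS libraries. The eosinophil sum also had its lowest Control value in library 2 under both treatments. The same held for the T and NK cell, dendritic cell and erythroid sums, lists with a positive median log2 fold change. The low of library 2 was thus not particular to lists that were lower in Runx1KO cells. Of 8 megakaryocyte and platelet genes, edgeR called 2 higher, Itga2b and Treml1 (median 3.05), with 7 higher and 1 lower at an unadjusted p under 0.05. DESeq2 called 6 higher and 1 lower, limma-voom 4 higher and 0 lower, and the fit with the block 4 higher and 1 lower. Itga2b kept its edgeR call with each LPS library left out. Treml1 lost it without library 2 or 3 of either genotype (edgeR adjusted p up to 0.113, without Control library 3). Itgb3, the most abundant of the list, averaged 15.1 ± 4.86 CPM in Runx1KO and 28.8 ± 4.05 CPM in Control LPS libraries (log2 fold change −0.93, SE 0.26, edgeR adjusted p = 0.155) and was called lower by DESeq2 and the fit with the block. The sum of the list was 42.5 to 57.6 CPM in Runx1KO and 30.5 to 35.4 CPM in Control libraries. Of 8 stem and progenitor genes edgeR called 0 (median 1.02), 4 were higher at an unadjusted p under 0.05 and DESeq2 called 2 higher. They summed to 35.1 to 41.9 CPM in Runx1KO and 24.8 to 28.3 CPM in Control libraries, so progenitor transcripts were not at 0 in either genotype. Of 12 mature neutrophil genes edgeR, DESeq2 and limma-voom called 0 with LPS, with 1 lower and 1 higher at an unadjusted p under 0.05. With LPS their sum was 169180 to 172340 CPM in Runx1KO and 166250 to 194930 CPM in Control libraries. With vehicle the sum was 122850 to 158790 CPM in Runx1KO and 166490 to 179730 CPM in Control libraries. Every Runx1KO vehicle library thus lay below every Control vehicle library, which is given with no test. Of the T and NK cell, erythroid, monocyte and dendritic cell lists, with 5, 7, 7 and 6 genes tested, edgeR, DESeq2 and limma-voom called 0, with 2 erythroid genes and 1 monocyte gene higher at an unadjusted p under 0.05. The part of other cells in the levels of the basophil genes was not tested. The sort selected Ly6G+ cells, Ly6G being a marker of neutrophils. Its gene, Ly6g, was named after its values were seen. Ly6g had 351, 156 and 158 CPM in Runx1KO LPS libraries, against 471, 395 and 400 CPM in Control LPS libraries. The groups did not overlap with LPS or vehicle (edgeR adjusted p = 0.315 with LPS). Adgre1, whose protein the sort excluded, had 20.1, 318 and 1220 CPM in Runx1KO and 16.4, 121.5 and 207 CPM in Control LPS libraries. These groups overlapped (edgeR adjusted p = 0.647). Whether the sort caught the same cells in both genotypes was not tested. The counts do not give the share of other cells in a library.

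**Figure D5:**
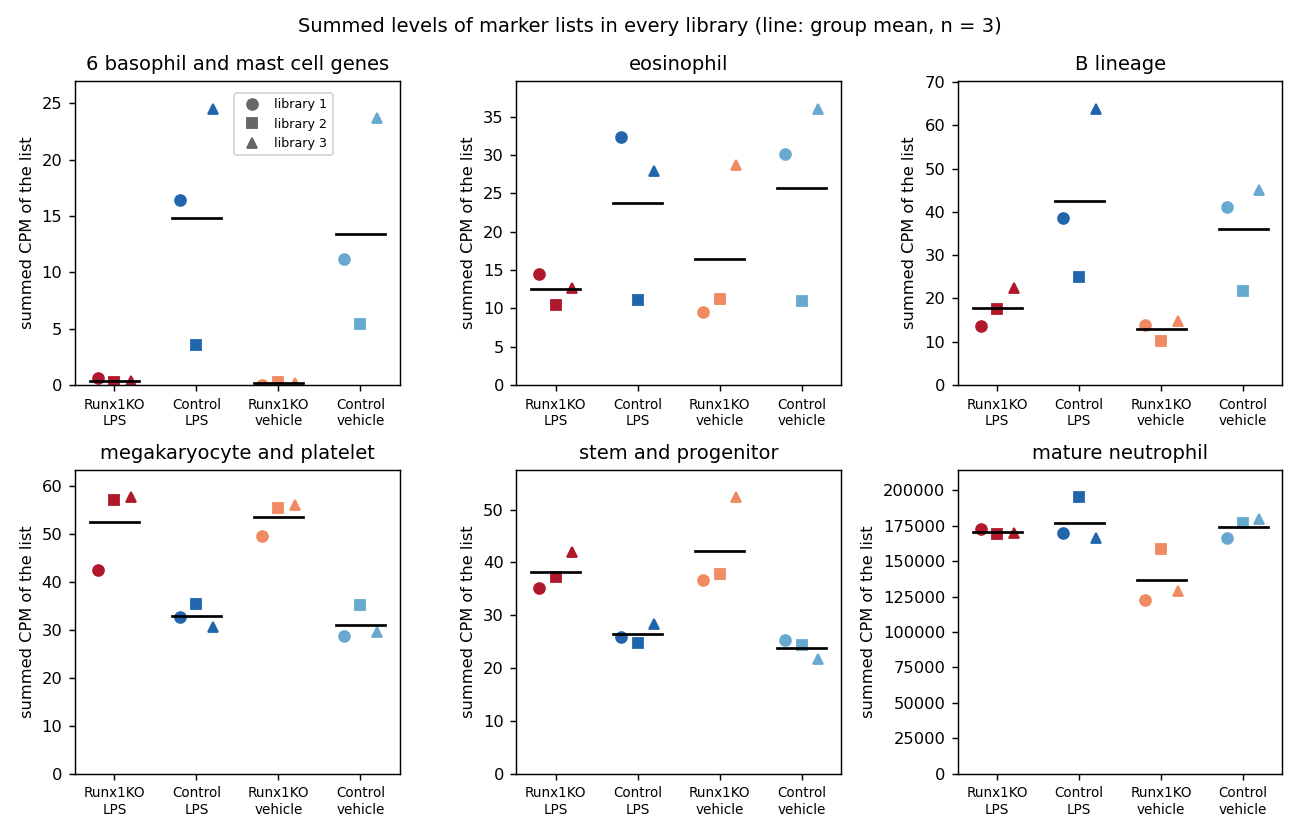
Summed CPM of the 6 basophil and mast cell genes other than Hdc and of 5 marker lists in each library; symbols give the library number and lines the group mean (n = 3). The 6 genes, the eosinophil list and the B lineage list have their lowest Control value in library 2 in both treatments, as do the T and NK cell, dendritic cell and erythroid lists, which are not drawn. The platelet and progenitor lists are higher in every Runx1KO library.

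Of 12917 genes tested, 15 (0.116%) had a count of 0 in all 6 Runx1KO libraries, and 11 of these were counted in all 6 Control libraries (0.0852%). By their summed Control counts the 11 were led by Cldn1, a tight junction protein, with 8900 counts, then Prss34 with 1298 and Mcpt8 with 337. Pknox2 (185 counts), Scd1 (166), Cyp11a1 (145), Tcea3 (114), Cacna1e (97), Akr1c18 (91) and Adgrb1 (66) followed, with 1 gene without a symbol among them, and these were named after their values were seen. Fcer1a was at 0 in all 6 Runx1KO libraries too, but not counted in all Control libraries. Prss34 and Mcpt8 were chosen for having no counts in Runx1KO cells with vehicle, so their place among these genes is a description. Genes at 0 in all Runx1KO libraries passed the filter through their Control libraries.

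The genes whose levels most resembled the mean of the 7 genes over the 12 libraries, by Pearson correlation of log2 CPM, were Pknox2 (r = 0.992), Cyp11a1 (0.988), Cldn1 (0.981), Cacna1e (0.974), N4bp3 (0.971), Gm10392 (0.969), Fcmr (0.968) and Lmo1 (0.967). The points share libraries, numbers and genotypes, so r is a description, and no test is given for genes chosen by it. Each of the 8 had a lower mean in the Runx1KO group with LPS. Lmo1, a LIM-only transcriptional cofactor, had 0, 0 and 0.0562 CPM in Runx1KO LPS libraries, against 12.9, 2.53 and 12.8 CPM in Control LPS libraries. Fcmr, the Fc receptor for IgM, had 0.0428, 0 and 0.112 CPM in Runx1KO LPS libraries, against 1.35, 0.860 and 2.31 CPM in Control LPS libraries. Cldn1 had 0, 0 and 0 CPM in Runx1KO LPS libraries, against 51.5, 9.66 and 233.9 CPM in Control LPS libraries. All 3 were lowest in library 2 of the Control group, as the basophil proteases were. A choice by this correlation favours genes that are lower in Runx1KO cells and lowest in Control library 2. Neither trait is thus a separate result. With a prior count of 0.5, 4 of the 8 genes stayed among the nearest 8, and with Spearman's measure 3 did.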

How the data were processed

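The deposited table holds raw counts of reads per gene, whole numbers that were not normalized. Per the submitters' processing notes, the authors used STAR 2.6.0a, featureCounts and the build mm9. The sources used here do not give the annotation release or the strand setting. Total counts were 19023610 to 26225169 per library. Reads carry no molecular identifiers, so intervals and floors cover counting error only.

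From these counts, edgeR 4.0.16 in R 4.3.3 kept 12917 genes (filterByExpr), scaled by TMM and tested Runx1KO against Control by quasi-likelihood F tests in a single fit with a coefficient per group, with Benjamini-Hochberg adjustment over all genes and a threshold of 0.05. Log2 CPM used a prior count of 2. Alternatives were library size alone, DESeq2 1.42.0, limma-voom (limma 3.58.1), other filters, the library number as a block, the 6 libraries alone and libraries left out. Tested on simulated data of the LPS comparison, 72.7% of genes changed 8-fold and 6.06% of those changed 2-fold were called. No libraries of a group agreed within sampling noise (lowest chi-square per degree of freedom 68.3).

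Same-numbered LPS libraries deviated together between Runx1KO and Control. The correlation of their deviations was 0.565, 0.429 and 0.445 for numbers 1, 2 and 3. Between LPS and vehicle it was 0.667, 0.659 and 0.394 in Control cells, and 0.314, 0.537 and 0.00575 in Runx1KO cells. The pairing is taken from these data and the numbers in the labels. The members and lists were chosen with earlier results of these data known. Named genes are all members, called members of the lists, up to 4 per list with the highest mean CPM and the 8 genes most correlated with the members; genes outside this rule are named as chosen after their values were seen. Exon lengths and overlapping neighbours come from an annotation on GRCm38, and promoter sequences from RefSeq on GRCm38.p6.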

Additional observations from a re-analysis of the deposited data

Results flagged for a closer look

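Cpa3 was higher with LPS than with vehicle in each Runx1KO pair of libraries (0.388, 0.180 and 0.190 CPM) and lower in each Control pair (−0.0529, −0.0081 and −0.305 CPM), so the pairs of the genotypes went opposite ways. The mean difference of Runx1KO pairs exceeded that of Control pairs by 0.375 CPM. The difference was not tested, because the vehicle libraries entered the choice of the genes, and it rests on 19 counts with LPS and 3 with vehicle in Runx1KO cells, and on 19 and 31 in Control cells.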

How the results depend on the processing

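With LPS, 119 genes were called; DESeq2 called 401, the fit with the library number as a replicate block 302 and the fit of the 6 LPS libraries alone 27, and leaving out 1 library gave 49 to 135 and all 4 of a number 3 to 25. Of the 7 genes 1 was called; DESeq2, no filter and the replicate block called 2, limma-voom and the 6 libraries alone 0, and leaving out libraries gave 0 to 2. With vehicle, 123 were called, by DESeq2 386 and with the block 315, and leaving out 1 library gave 47 to 70 and all 4 of a number 1 to 6. The log2 fold change of Hdc turned to −0.074 with library size alone and −0.0027 by limma-voom and ranged between −0.18 and 0.51 with libraries left out. That of Cpa3 ranged between −0.46 and 0.27, and was 0.13 without the libraries numbered 3. The cause was not tested. Library size alone moved the median log2 fold change of all genes with LPS from 0.03 to −0.08. Over all results 107 alternatives were rated the same, 36 weaker, 12 stronger and 9 reversed. The rating mixes measures: direction and side of the threshold for a gene, nearness to the main count for a count, and 1 SD for a group mean. The 107 include the 28 group means, which have no direction or threshold. The 28 group means stayed within 1 SD with library size alone. Adjusted p ranged over the alternatives between 3.61e-10 and 0.204 for Prss34 (8 of 16 called), 8.26e-06 and 0.352 for Mcpt8 (4 of 15), 0.0666 and 0.668 for Fcer1a, 0.130 and 0.924 for Cd200r3 and 0.808 and 1 for Cpa3, the last 3 with 0 called. Depth limits Ms4a2, Cpa3, Cd200r3 and Fcer1a, at up to 51 counts over a group. The stricter filter and the 6 libraries alone gave no value for those 4 genes, and the latter none for Mcpt8.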
